A study of Mus musculus with 18 samples.

Results

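Cells sorted as neutrophils from the colon were compared with cells sorted as neutrophils from the spleen of C57BL/6 mice, 3 libraries of each out of the 18 in the series. The mice were adults, 8 to 12 weeks old, and the labels name no treatment and no genetic change in either group. Cells were sorted by flow cytometry on CD45 (the pan-leukocyte surface antigen), CD11b (the integrin encoded by Itgam), Ly6G and a viability dye, with a purity that the labels give as typically above 95%. Neither group had a control of another kind. The labels describe the tissue of the Intestine libraries as colon. They do not say whether the 3 replicates of a tissue came from separate mice, so each p-value measures the spread of libraries that may be technical replicates. The comparison asks how the transcriptome labelled as that of neutrophils differs between a barrier tissue and a lymphoid organ that filters blood.

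The 6 libraries were chosen by their labels, and every gene of the table was then considered. The table lists 32328 genes, and the 13631 that reached 1 or more in 3 or more of the 6 libraries were tested. A value is the estimated number of reads of a gene scaled by the effective size of its library, and is called a scaled count here. It is not divided by the length of the gene, so levels are compared between libraries and never between genes. The lowest value of each library, its floor, stands for 0 reads. Values are given in the order of replicates 1, 2 and 3. Differences are log2(value + 1) in Intestine minus Spleen with their standard error, and a gene was called when its adjusted p from limma was under 0.05.

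Neutrophils are short-lived phagocytes that mature in the bone marrow under granulocyte colony-stimulating factor, enter the blood through chemokine signals and carry granules filled in sequence during maturation. The azurophil granules are made first, then the specific granules and then the gelatinase granules, and most genes for granule proteins are silent once the cell has left the marrow. In tissues the cells sense microbes and damage through formyl peptide, complement, Toll-like and lectin receptors, and they kill through the NADPH oxidase, granule proteins and extracellular traps. The healthy colon holds few neutrophils beside many plasma cells that secrete immunoglobulin A, resident macrophages, fibroblasts, smooth muscle, vessels and epithelium. The spleen holds marginated neutrophils beside B-cell follicles and red pulp macrophages.

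The genes behind the sort were checked first. Ptprc, which encodes CD45, was 617, 408 and 515 in Intestine and 6101, 6328 and 4542 in Spleen, a difference of -3.46 ± 0.25 (adjusted p = 7.5e-06). Itgam was 254, 145 and 204 in Intestine and 1258, 1452 and 962 in Spleen, a difference of -2.62 ± 0.26 (adjusted p = 4.9e-05). Ly6g, the antigen that defines the sort, was 3.14, 0.410 and 0.346 in Intestine and 7.61, 11.96 and 23.3 in Spleen, a difference of -2.81 ± 0.76 (adjusted p = 0.015). Leaving out Intestine replicate 3, Spleen replicate 2 or Spleen replicate 3 left Ly6g short of the threshold (adjusted p = 0.053, 0.054 and 0.057). All 3 genes were lower in every library labelled Intestine than in every Spleen library, and Ly6g was under 1 scaled count in Intestine replicates 2 and 3. At the level of transcripts the libraries labelled Intestine thus go against their label in part, and both groups are called below by their labels.

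Marker lists of neutrophils and of other cells were then summed in each library. The 30 neutrophil identity genes summed to 1706 to 2072 scaled counts in Intestine, 17422 to 23668 in Spleen and 43445 to 49477 in Blood. The 20 genes of stroma and smooth muscle summed to 10374 to 22386 in Intestine against 325 to 519 in Spleen. The 12 plasma cell genes summed to 9833 to 31787 in Intestine against 743 to 1732 in Spleen. For these lists the Intestine libraries lay wholly on one side of the Spleen libraries. The 16 endothelial genes (1105 to 3327 against 83.4 to 166), the 22 genes of macrophages and monocytes (2193 to 3730.4 against 629.9 to 856) and the 15 goblet cell genes (493 to 745 against 2.53 to 9.04) were also higher in every Intestine library. The 16 B-cell genes went the other way, with 196 to 366 in Intestine and 2598 to 4722 in Spleen. Of the 28 colon epithelium genes, 18 were at the floor in all Spleen libraries and 1 in all Intestine libraries. No gene of the stromal, B-cell or macrophage lists was at the floor throughout either group. In total RNA from a sorted population, fewer cells of a type and less RNA per cell cannot be told apart. What part these other transcripts had in the differences of single genes was not tested.

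**Figure D1:**
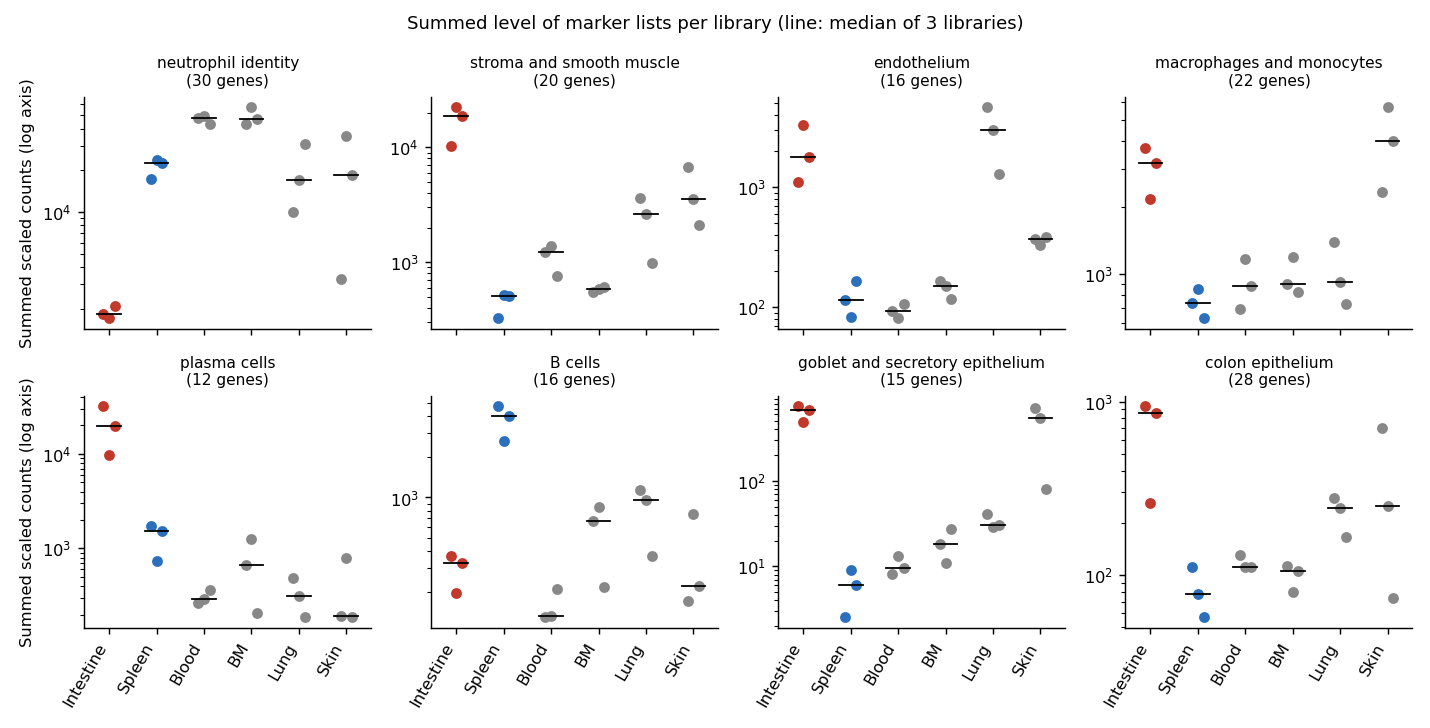
Summed scaled counts of 8 marker lists (vertical log axis) in each of the 18 libraries, 3 per tissue, with a line at the median. The 3 Intestine libraries (red) have the lowest neutrophil sums of all 18 libraries, at 1706 to 2072, and the highest sums for stroma and for plasma cells. The Spleen libraries (blue) have the highest B-cell sums.

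Both groups were sequenced to a like depth, with 9.86e+06, 9.92e+06 and 1.09e+07 estimated counts in Intestine against 1.00e+07, 1.21e+07 and 8.72e+06 in Spleen. Mitochondrially encoded genes took 23.2%, 8.58% and 8.24% of the counts in Intestine and 0.889%, 0.692% and 1.15% in Spleen (exact two-sided permutation test, p = 0.1, the smallest that 3 against 3 allows). The first principal component of the tested genes carried 66.5% of the variance. The root mean square log2 distance between an Intestine and a Spleen library was 2.10 to 2.44, against 1.24 to 1.62 within Intestine and 0.812 to 1.16 within Spleen. No sequencing batch or date is given in the labels.

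Of the 13631 genes tested, 36.7% were called, 2609 higher in Intestine (19.1%) and 2390 lower (17.5%). The median difference over all tested genes was -0.05. The gains reached further than the losses, since 1284 called genes were higher in Intestine by at least 3 on the log2 scale and 452 were lower by as much. The 3 Intestine libraries lay above all 3 Spleen libraries for 24.1% of the tested genes and below them for 23.9%. A gene seen in 1 group alone had to differ once it passed the minimum value, which applied to 724 genes tested through Intestine alone and 262 through Spleen alone. Counts of list members below are descriptions to be read against these shares.

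**Figure D2:**
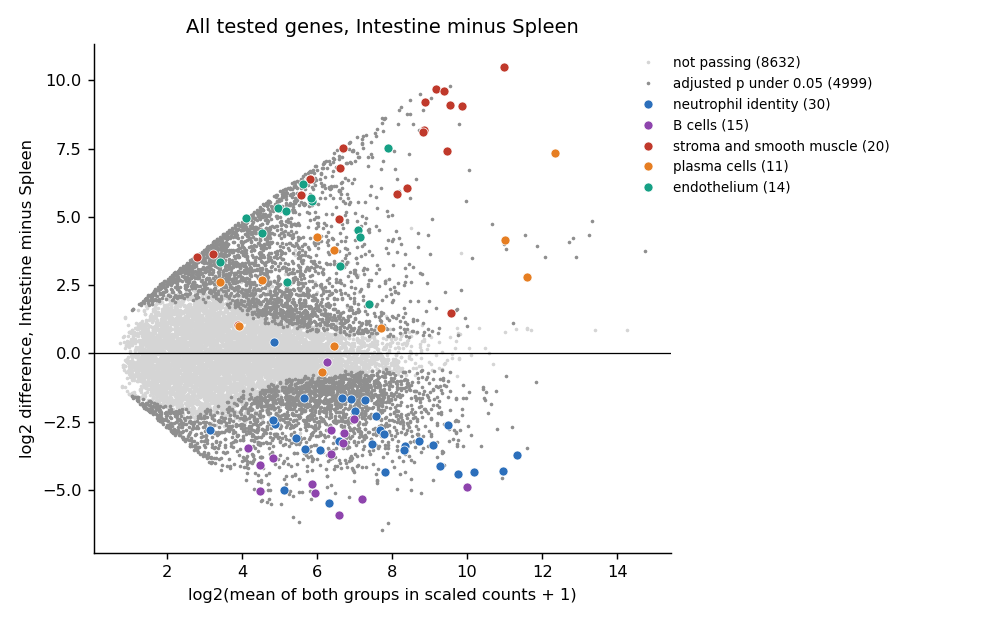
Log2 difference of Intestine minus Spleen (vertical axis) against log2 of the mean scaled count plus 1 (horizontal axis) for the 13631 tested genes, with 5 marker lists in colour. Stromal (red), plasma cell (orange) and endothelial (green) genes lie mostly above 0 and neutrophil identity (blue) and B-cell (purple) genes below it.

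Genes that define the neutrophil were lower in Intestine almost without exception. Of the 30 identity genes, all tested, 28 were lower in Intestine and the other 2 did not pass, with a median of -3.22, a 9.29-fold lower level. For 29 of them every Intestine library lay below every Spleen library, and for 14 it lay below all 15 other libraries of the series, as it did for 2.74% of all tested genes. Csf3r, the receptor for granulocyte colony-stimulating factor, was 176, 219 and 159.6 in Intestine and 3708, 4864 and 2689.6 in Spleen, a difference of -4.31 ± 0.26 (adjusted p = 2.9e-06). The groups stood far apart, and the Intestine libraries resembled each other closely. S100a8 and S100a9 encode the subunits of calprotectin, the main cytosolic protein of the neutrophil. S100a8 was 112, 83.5 and 79.7 in Intestine and 666, 884 and 1433 in Spleen, and S100a9 was 430.3, 267 and 377 in Intestine and 3482, 5192 and 5719.8 in Spleen, with differences of -3.37 and -3.74. The exceptions were Wfdc21, which was 17.4, 0.539 and 10.3 in Intestine and 17.97, 28.3 and 88.9 in Spleen (adjusted p = 0.063, and 0.033 without Intestine replicate 1), and G0s2, an inhibitor of lipolysis, which was 22.4, 32.7 and 39.3 in Intestine and 36.9, 22.4 and 13.7 in Spleen (adjusted p = 0.5).

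The promoter of Csf3r is shown because the gene is among the 4 identity genes with the smallest adjusted p and its proximal region carries the core that the myeloid factor PU.1 recognises. The 140 bases upstream of its start are at chr4:126024519-126024658 on the plus strand of GRCm38.p6, from RefSeq, with the PU.1 core in capitals.
Csf3r: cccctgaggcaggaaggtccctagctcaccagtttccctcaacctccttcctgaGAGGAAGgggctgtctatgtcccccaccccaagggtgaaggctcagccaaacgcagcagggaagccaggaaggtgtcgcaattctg
The core was searched as GAGGAAG or its reverse complement CTTCCTC in the 250 bases upstream of each start. It was found for 6 of the 24 identity genes with a RefSeq promoter (Csf3r, Itgam, Ly6g, Mmp8, S100a8 and Clec4d) and in 10.6% of 32851 promoters. Spi1, which encodes PU.1, was 26.1, 59.4 and 63.2 in Intestine and 268, 366 and 375 in Spleen, a difference of -2.82 ± 0.34 (adjusted p = 1.6e-04). Every Intestine library was lower than every Spleen library. Among the 15 tested genes of granulopoietic transcription factors 5 were lower and 1 higher, and the lower ones included Cebpd (-2.50) and Klf6 (-1.62). Of the 15, 1 was tested through Spleen alone.

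**Figure D3:**
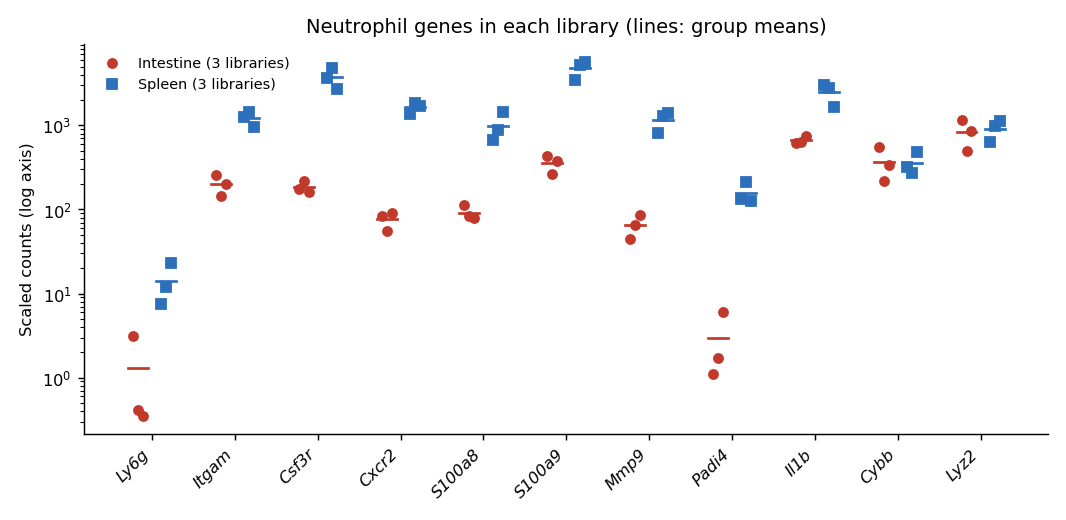
Scaled counts (vertical log axis) of 11 neutrophil genes in the 3 Intestine (red circles) and 3 Spleen (blue squares) libraries, with a line at each group mean. The groups are separate for Ly6g through Il1b and overlap for Cybb and Lyz2.

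Genes for granule proteins were then taken by granule type. Of 22 tested genes for specific and gelatinase granules (24 listed), 12 were lower in Intestine and the other 10 did not pass, with a median of -1.90. Of the 22, 2 were tested through Spleen alone. Mmp9, the gelatinase that gives the last granule class its name, was 44.7, 66.02 and 87.1 in Intestine and 820.1, 1288 and 1406 in Spleen, a difference of -4.14 ± 0.30 (adjusted p = 8.0e-06). Hp, which encodes the haemoglobin scavenger haptoglobin, was 59.5, 38.6 and 32.7 in Intestine and 406, 711 and 925 in Spleen, and Slpi, an inhibitor of neutrophil elastase, was 50.8, 53.7 and 56.5 in Intestine and 379.8, 579.7 and 829 in Spleen. Their differences were -3.90 and -3.38. Lcn2, the iron-sequestering lipocalin, was 68.8, 60.8 and 54.2 in Intestine and 207, 349 and 508 in Spleen (-2.43 ± 0.32), and Mmp8, the neutrophil collagenase, was 113, 31 and 62.8 in Intestine and 244, 304 and 379 in Spleen (-2.31 ± 0.41). Retnlg, a resistin-like secreted protein, was 19.7, 25.6 and 42.9 in Intestine and 167, 277 and 521 in Spleen (-3.33 ± 0.43). In each of these 6 genes the Intestine and Spleen libraries did not overlap.

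The specific granule genes Ltf, Ngp and Camp fell short of the threshold, and azurophil genes went both ways. Ltf (lactoferrin) was 99.7, 14.9 and 14.5 in Intestine and 96.4, 56.5 and 33.8 in Spleen, Ngp was 119.95, 10.8 and 16.9 in Intestine and 101, 31.01 and 21.8 in Spleen and Camp (the cathelicidin precursor) was 38.1, 4.94 and 1.96 in Intestine and 34.7, 21.1 and 12.3 in Spleen. Intestine replicate 1 was the highest of the 3 Intestine libraries for each, the groups overlapped, and none passed (adjusted p = 0.3, 0.67 and 0.28). Without Intestine replicate 1, Ltf and Camp passed with differences of -1.89 and -2.39 (adjusted p = 0.014 and 0.021), and Ngp did not. Mpo, the myeloperoxidase of azurophil granules, was 0.160, 0.125 and 1.05 in Intestine and 1.66, 1.57 and 0.622 in Spleen, near the floor in both groups. Of 10 tested azurophil genes (17 listed) 4 were higher and 1 lower. The higher ones were Ctsc, the protease that activates the granule serine proteases, at 469.7, 312 and 548 in Intestine and 94.95, 55.6 and 90.9 in Spleen (2.45 ± 0.30), the glutathione transferase Gstm1 (4.81), Lyz1 (3.32) and Ctsz (0.77). Ctsz missed the threshold without Intestine replicate 2 or 3 or Spleen replicate 1 or 2 (adjusted p = 0.075, 0.078, 0.062 and 0.1). Lyz1 is the lysozyme of Paneth cells and is also on the list of secretory epithelium. Lyz2, the lysozyme of myeloid cells at large, was 1151, 496 and 857 in Intestine and 630.5, 987 and 1135 in Spleen and did not pass (adjusted p = 0.72).

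Receptors for chemoattractants were mostly lower. Of 16 tested (17 listed), 9 were lower and 4 higher, with a median of -1.87. Cxcr2, the receptor for the CXC chemokines that draw neutrophils out of the marrow and into tissue, was 84.7, 55.7 and 92.1 in Intestine and 1357, 1852 and 1706 in Spleen, a difference of -4.40 ± 0.25 (adjusted p = 2.2e-06). Cxcr4, which retains neutrophils in the marrow and rises on aged cells, was 57.6, 79.5 and 88.4 in Intestine and 402, 386 and 438 in Spleen, a difference of -2.45 ± 0.24 (adjusted p = 3.7e-05). The groups did not overlap for either receptor. C3ar1, the receptor for complement fragment C3a, was 248, 176 and 179.7 in Intestine and 6.60, 1.70 and 2.61 in Spleen, a difference of 5.57 ± 0.45 in the opposite direction (adjusted p = 1.5e-05). Ccr1 was 125, 79.7 and 114 in Intestine and 559, 614 and 651 in Spleen (-2.53).

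Among 18 genes of adhesion and trafficking 10 were lower and 5 higher. Itgal, the alpha chain of the leukocyte integrin LFA-1, was 67.2, 64.9 and 111 in Intestine and 1081, 1199.6 and 1008 in Spleen (-3.78 ± 0.25), and Selplg, the selectin ligand PSGL-1, was 134, 101 and 99.2 in Intestine and 693, 1004 and 1090.4 in Spleen (-3.04 ± 0.25). Itgb1, an integrin chain found on most adherent cells, was 685, 811 and 851 in Intestine and 101, 113 and 97.5 in Spleen, higher in every Intestine library by 2.90 ± 0.21 (adjusted p = 7.4e-06). The leukocyte-restricted Itgal and Selplg were lower, and the broadly expressed Itgb1 was higher. The stromal sums were also higher in Intestine, and their part in these values was not tested.

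Receptors that recognise antibody or dampen activation were mostly lower. Of 18 tested members (20 listed) 15 were lower and 2 higher, with a median of -2.43. Of the 18, 1 was tested through Spleen alone. Pirb, an inhibitory receptor of the immunoglobulin superfamily with close relatives that can share reads, was 32.8, 34.2 and 16.4 in Intestine and 514, 602 and 386 in Spleen (-4.17 ± 0.32). Clec7a (dectin-1, the receptor for fungal beta-glucan) was 202, 118 and 117 in Intestine and 1079, 1499 and 1411 in Spleen (-3.22 ± 0.27), and the sialic acid receptor Siglece was 25.2, 16.8 and 36.7 in Intestine and 250.2, 289 and 288 in Spleen (-3.41 ± 0.31). Cd300ld was 77.1, 52.9 and 67.03 in Intestine and 613, 828 and 706 in Spleen (-3.43 ± 0.23). No Intestine library reached the lowest Spleen library for any of these 4 genes.

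Genes of oxidative killing and of extracellular traps were lower or did not pass. Of the 10 tested genes of the NADPH oxidase and of extracellular traps (11 listed) 7 were lower and the other 3 did not pass. Ncf1, the p47phox subunit of the oxidase, was 101, 96.4 and 109 in Intestine and 614, 897 and 641 in Spleen, and the GTPase Rac2 was 113, 93.8 and 73.3 in Intestine and 499.6, 592 and 729.8 in Spleen, with differences of -2.78 and -2.69. Cybb, the catalytic subunit, which macrophages also express, was 553, 220.1 and 341 in Intestine and 323, 268 and 479 in Spleen. It was chosen after its values were seen, and the groups overlapped (adjusted p = 0.999). Padi4, the enzyme that citrullinates histones in extracellular traps, was 1.12, 1.70 and 6.03 in Intestine and 132, 209.96 and 125 in Spleen, a difference of -5.48 ± 0.52 (adjusted p = 3.6e-05), one of the largest losses in the comparison.

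Toll-like receptors and their adaptors were lower in 7 of 21 genes and higher in 1, a share called near the 36.7% of all tested genes. Myd88, the adaptor shared by most of these receptors, was 19.5, 35.7 and 18.5 in Intestine and 161, 245 and 193 in Spleen (-3.02 ± 0.33). Tlr13, a receptor for bacterial ribosomal RNA, was 78.8, 41.2 and 82.6 in Intestine and 302, 406 and 341 in Spleen (-2.41 ± 0.30), Tlr6 was 1.14, 12.7 and 1.33 in Intestine and 62.4, 67.9 and 57.7 in Spleen and the kinase Irak4 was 45.2, 13.7 and 14.2 in Intestine and 117, 104 and 125 in Spleen. The Intestine libraries lay below the Spleen libraries for all 4.

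Inflammatory cytokines and the feedback genes of NF-kappaB passed in few cases. Of 30 tested (34 listed), 4 were lower and 3 higher, with a median of -0.44. Il1b, the secreted interleukin 1 made as a precursor by activated myeloid cells, was 609, 641 and 751 in Intestine and 3012, 2792 and 1676 in Spleen, a difference of -1.86 ± 0.26 (adjusted p = 4.1e-04). Il1a, its membrane-associated relative, was 7.93, 8.92 and 19.3 in Intestine and 0.116, 0.109 and 0.236 in Spleen, a difference of 3.40 ± 0.66 in the other direction (adjusted p = 0.0026). Il1a met the minimum value through Intestine alone and had to differ. Tnfaip2 was 130.2, 108 and 128 in Intestine and 561, 779 and 569 in Spleen (-2.36), and the NF-kappaB subunit Rel was 127, 101 and 68.2 in Intestine and 268, 252 and 334 in Spleen (-1.55). The Il1b difference lay 1.36 above the median of the identity genes on the log2 scale.

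The immediate early genes, which respond within minutes to stimulation, went both ways. Of 25 tested (26 listed), 11 were lower and 5 higher. Dusp1, a phosphatase that switches off MAP kinases, was 149.8, 240.1 and 194 in Intestine and 1394, 978 and 1362 in Spleen (-2.68 ± 0.25), Ier5 was 115, 105 and 105 in Intestine and 509, 663 and 528 in Spleen (-2.37 ± 0.21) and the transcription factor Klf2 was 24.4, 27.01 and 15.2 in Intestine and 133, 122 and 159 in Spleen (-2.62 ± 0.31). Klf4, a related factor, was 132, 88.8 and 118 in Intestine and 12.6, 11.6 and 9.65 in Spleen, higher in every Intestine library (3.20 ± 0.33, adjusted p = 5.7e-05). Fosb was 199, 234 and 167 in Intestine and 123, 74.4 and 80.3 in Spleen (1.13 ± 0.27, adjusted p = 0.0081), and Nr4a1 was 90.4, 92.4 and 125 in Intestine and 125, 59.4 and 45.7 in Spleen and did not pass (adjusted p = 0.29).

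Among survival genes, 9 of 21 tested members of the Bcl2 family and related genes were lower (23 listed) and 1 was higher. Of the 21, 1 was tested through Spleen alone. Mcl1, the short-lived survival protein on which neutrophils depend, was 401, 509 and 429 in Intestine and 2962, 3787 and 2544 in Spleen, a difference of -2.78 ± 0.23 (adjusted p = 1.7e-05). Pmaip1, which encodes the Mcl1 antagonist Noxa, was 23.8, 20.04 and 47.5 in Intestine and 263, 255 and 213 in Spleen (-3.05 ± 0.33), and Bid, a proapoptotic relative, was 2.21, 21.1 and 10.6 in Intestine and 75.7, 96.4 and 67.3 in Spleen (-3.09 ± 0.63). The prosurvival gene and both proapoptotic genes were lower in all Intestine libraries.

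Because most identity genes were lower, each list was also set against their median. The median member differed from it by 2.78 on the log2 scale for NF-kappaB feedback and cytokines, 2.33 for immediate early genes, 2.05 for the Bcl2 family and 2.0 for Toll-like receptors. It differed by 1.35 for chemoattractant receptors, 1.32 for specific and gelatinase granules, 1.17 for the NADPH oxidase and traps and 0.78 for Fc and inhibitory receptors. These are descriptions without a test, and many members of the first groups are also expressed by other cells.

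**Figure D4:**
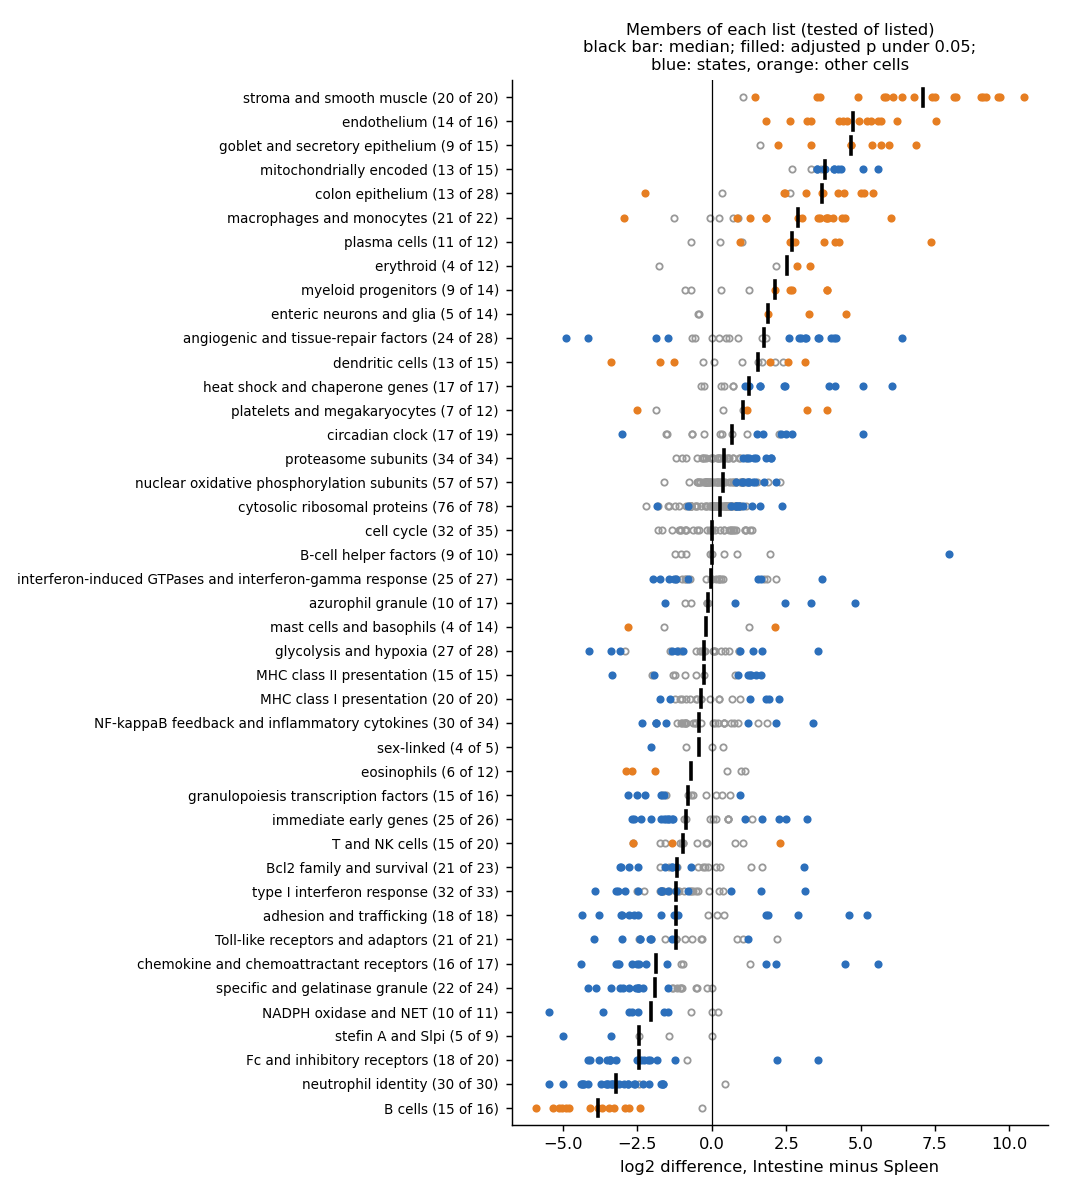
Log2 differences of Intestine minus Spleen (horizontal axis) for the tested members of 43 gene lists (vertical axis), with the number tested of those listed. Filled points passed at an adjusted p under 0.05, blue for lists of states and orange for markers of other cells, and a black bar marks each median, from -3.83 for B cells to 7.10 for stroma and smooth muscle.

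Interferon genes were taken in 2 classes. Of 32 tested type I interferon response genes (33 listed) 12 were lower and 3 higher, with a median of -1.20. Oas3, a sensor of double-stranded RNA, was 41.1, 85.3 and 82.2 in Intestine and 524, 792 and 599.5 in Spleen (-3.23 ± 0.31), Oasl2 was 48.1, 96.5 and 86.9 in Intestine and 569.7, 774 and 408 in Spleen (-2.92 ± 0.32) and Trim30a was 90.2, 62.6 and 83.6 in Intestine and 471, 507 and 365 in Spleen (-2.49 ± 0.24). Bst2 (tetherin, which holds budding virus on the cell surface) was 43.8, 46.2 and 26.5 in Intestine and 5.06, 3.02 and 2.60 in Spleen, higher in Intestine (3.12 ± 0.54, adjusted p = 0.0013). The interferon-induced GTPases and the interferon gamma response gave 6 lower and 3 higher of 25 tested (27 listed), a share near the 36.7% of all tested genes, and a median of -0.02. Irf1 was 92.4, 85.2 and 61.3 in Intestine and 329, 358 and 249 in Spleen (-1.96 ± 0.26), and Iigp1, an immunity-related GTPase, was 26.5, 73.7 and 42.01 in Intestine and 0.734, 2.80 and 5.25 in Spleen (3.69 ± 0.66).

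Genes of antigen presentation went both ways. In the MHC class I list 4 of 20 genes were higher and 2 lower, a share called below the 36.7% of all tested genes. The higher ones named here were chaperones of the endoplasmic reticulum. Calr (calreticulin) was 1221, 952 and 1166 in Intestine and 190.3, 202 and 314 in Spleen (2.26 ± 0.25, adjusted p = 7.8e-05), Canx (calnexin) was 815, 783 and 792 in Intestine and 208, 188 and 241 in Spleen (1.91 ± 0.20) and Pdia3 was 274, 313 and 314 in Intestine and 101, 71.4 and 84.9 in Spleen (1.81 ± 0.23). H2-D1, a class I heavy chain, was 609, 530.03 and 612 in Intestine and 1264, 1745 and 1644 in Spleen, lower in every Intestine library (-1.40 ± 0.22). Of 15 class II genes 6 were higher and 2 lower. Cd74, the invariant chain, was 1859, 1091 and 1278 in Intestine and 538, 419 and 761 in Spleen (1.3 ± 0.29, adjusted p = 0.0051), and H2-Eb1 was 1259, 592 and 752 in Intestine and 265, 159.6 and 412 in Spleen (1.66 ± 0.37). H2-Ob, a chaperone subunit of B cells, was 36.97, 1.29 and 11.3 in Intestine and 105, 89.5 and 116 in Spleen and went the other way (-3.35 ± 0.81). Both macrophages, higher by their markers in Intestine, and B cells, higher by theirs in Spleen, express class II genes, and their part in these values was not tested.

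Genes of the extracellular matrix were among the largest gains. Among the 15 genes with the largest gains outside the marker lists, Postn, a matricellular protein of fibroblasts, came first at 738, 1683 and 2091 in Intestine and 0.502, 0.545 and 0.615 in Spleen, a difference of 9.79 ± 0.40 (adjusted p = 3.8e-07). Dpt (dermatopontin, which binds collagen fibrils) was 634, 869 and 1052 in Intestine and 0.0386, 0.109 and 0.331 in Spleen (9.50 ± 0.36), and Tnc (tenascin C) was 575, 743 and 815 in Intestine and 0.0386, 0.0364 and 0.331 in Spleen (9.29 ± 0.36). The collagen chains Col6a3 (9.34), Col12a1 (9.01) and Col5a2 were also among them. Col5a2 was 285, 525 and 465 in Intestine and at the floor in all 3 Spleen libraries, which puts it at least 1737-fold higher in Intestine, taking a floor of 3 counts per library. The others were the microfibril protein Fbn1 (8.92), the collagen chaperone Serpinh1 (8.90), the complement protease C1s1 (8.77), Sparcl1 (8.75), Igfbp7 (8.62), tenascin X (Tnxb, 8.60), the laminin chains Lama4 (8.45) and Lamb1 (8.42) and Adamdec1 (8.41). Adamdec1, a secreted metalloprotease of the gut mucosa, was 820.3, 2038 and 2435 in Intestine and 3.05, 6.44 and 2.41 in Spleen. The rule that named these 15 required every Intestine library to lie above every Spleen library, so that separation is not a result. Postn, Dpt, Tnc, Col5a2 and Col12a1 were under 1 in every Spleen library. They met the minimum value through Intestine alone and had to differ. The same may hold for genes given here by their difference alone.

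Stroma and smooth muscle markers were higher in Intestine. Of 20 members, 19 were higher and 1 did not pass, with a median of 7.10, and 7 were tested through Intestine alone. Col3a1, a fibrillar collagen of fibroblasts, was 2518, 4778 and 4837 in Intestine and 1.04, 3.60 and 1.09 in Spleen, a difference of 10.49 ± 0.38 (adjusted p = 3.6e-07). Col6a1 was 879, 1351 and 1192 in Intestine and 0.425, 0.473 and 0.236 in Spleen, Sparc was 979, 2515 and 2123 in Intestine and 2.31, 2.81 and 1.79 in Spleen and Bgn (biglycan) was 787, 1919 and 1768 in Intestine and 1.78, 2.20 and 0.817 in Spleen. Intestine replicate 1 was the lowest of the Intestine libraries for each of these 4 genes, and still lay far above the Spleen libraries. For 14 members the Intestine libraries were above all 15 other libraries, as for 6.13% of all tested genes. Over all genes named as collagen chains, 37 of 44 were tested, 14 of them through Intestine alone, and 25 were higher and 1 lower. The lower one, Col11a2, met the minimum value through Spleen alone and had to differ.

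Endothelial genes were higher throughout, with 14 of 14 tested members called (16 listed), 4 of them tested through Intestine alone. Cav1, which builds the caveolae of the cell surface, was 223, 699.5 and 492 in Intestine and 0.811, 1.42 and 1.84 in Spleen (7.52 ± 0.46), and Kdr, the main receptor for vascular endothelial growth factor, was 160.4, 387 and 238 in Intestine and 8.33, 6.69 and 15.9 in Spleen (4.53 ± 0.42). Tek, the angiopoietin receptor, was 90.6, 169 and 80.8 in Intestine and 1.82, 1.42 and 0.709 in Spleen (5.58 ± 0.52), and Plvap, a protein of the fenestrated endothelium, was 61.8, 161 and 66.5 in Intestine and 0.425, 0.0364 and 0.142 in Spleen (6.21 ± 0.62). Intestine replicate 2 had the highest level of each.

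Fewer of the epithelial genes could be tested. Of 13 tested colon epithelium genes (28 listed), 10 were higher and 1 lower. Epcam, the epithelial adhesion molecule, was 49.4, 6.76 and 34.9 in Intestine and 0.348, 1.35 and 5.34 in Spleen (3.15 ± 0.89, adjusted p = 0.018), and it missed the threshold without Intestine replicate 1 or 3 or Spleen replicate 1 or 2 (adjusted p = 0.06, 0.076, 0.068 and 0.061). Krt8, a keratin of simple epithelia, was 95.6, 7.68 and 105 in Intestine and at the floor in all 3 Spleen libraries, at least 284-fold higher in Intestine. Muc13 was 81.01, 23.4 and 79.97 in Intestine and 2.85, 0.191 and 0.0473 in Spleen (5.01 ± 0.77). Krt8 and Epcam were lowest in Intestine replicate 2. Of 9 tested goblet cell genes (15 listed) 8 were higher and 1 did not pass. The minimum value was met through Intestine alone by 7 of these 9 and by 6 of the 13 colon epithelium genes, which had to differ, so neither count is a result about its list. Muc2, the mucin that forms the mucus layer, was 123, 141 and 102 in Intestine and at the floor in all 3 Spleen libraries, at least 498-fold higher in Intestine by the same floor. Pigr, which carries immunoglobulin A across the epithelium, was 333, 39.6 and 195 in Intestine and 0.926, 3.16 and 0.379 in Spleen (5.96 ± 0.78). Enteric glia and neurons gave 5 tested genes of 14 listed, with 3 higher and 2 tested through Intestine alone. Gfap, an intermediate filament of glia, was 17.4, 27.1 and 25.5 in Intestine and at the floor in all 3 Spleen libraries, at least 95-fold higher.

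Plasma cell transcripts were higher in Intestine. Of 11 tested members (12 listed) 8 were higher and 3 did not pass. Igha, the heavy chain of immunoglobulin A, was 16707, 4293 and 10150.2 in Intestine and 130.1, 15.9 and 73.8 in Spleen, a difference of 7.36 ± 0.69 (adjusted p = 3.1e-05). Jchain, which joins immunoglobulin A into dimers, was 5677, 2291 and 3660.1 in Intestine and 304, 108 and 256 in Spleen (4.15 ± 0.42), and the light chain Igkc was 7946, 2887 and 5292 in Intestine and 1000.2, 376 and 934 in Spleen (2.81 ± 0.44). Intestine replicate 1 was highest and replicate 2 lowest for all 3 genes, and no Spleen library reached any Intestine library. Among immunoglobulin V segments 118 of 348 were tested, with 34 higher and 2 lower. The minimum value was met through Intestine alone by 4 of the 118. It was met through Spleen alone by 2, which are the 2 lower ones and had to differ. Single V segments share reads and are uncertain one by one.

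B cell genes stood on the side of Spleen. Of 15 tested (16 listed) 14 were lower in Intestine and 1 did not pass, with a median of -3.83. Ighm, the heavy chain of immunoglobulin M, was 95.8, 35.1 and 69.4 in Intestine and 2853, 1187 and 1896 in Spleen (-4.89 ± 0.40), and Pax5, the factor that fixes B-cell identity, was 17.9, 2.61 and 3.80 in Intestine and 336, 226 and 288 in Spleen (-5.35 ± 0.55). Cr2, the complement receptor of marginal zone and follicular B cells, was 1.65, 0.0415 and 9.71 in Intestine and 175, 163 and 220.1 in Spleen (-5.91 ± 0.72), and Cd79a was 77.8, 17.1 and 33.4 in Intestine and 162, 136 and 323 in Spleen (-2.40 ± 0.51). All 4 separated the groups. The libraries labelled Spleen thus held transcripts of another cell type too.

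Macrophage genes were higher in Intestine, with 15 of 21 tested (22 listed) higher and 1 lower. Apoe, a lipid carrier of tissue macrophages, was 1209.7, 721 and 935 in Intestine and 71.9, 77.7 and 71.8 in Spleen (3.65 ± 0.24), the mannose receptor Mrc1 was 468, 283 and 537 in Intestine and 31.6, 38.1 and 17.1 in Spleen (3.87 ± 0.35) and the haemoglobin receptor Cd163 was 112, 110.01 and 106 in Intestine and 13.2, 14.98 and 9.70 in Spleen (3.04 ± 0.32). Lyve1, also a marker of lymphatic vessels, was 89.4, 115 and 95.2 in Intestine and 0.193, 1.42 and 0.236 in Spleen (6.03 ± 0.55). Adgre1, which encodes F4/80, was 217, 145 and 241 in Intestine and 95.3, 116 and 113 in Spleen, a smaller difference of 0.86 ± 0.26 (adjusted p = 0.024) that missed the threshold without Intestine replicate 1 or 3 or Spleen replicate 1 or 2 (adjusted p = 0.06, 0.093, 0.086 and 0.057). Csf1r was 335, 252 and 345 in Intestine and 256, 315 and 219 in Spleen and did not pass (adjusted p = 0.46). The groups overlapped for Csf1r and for none of the other 5.

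Markers of other blood lineages passed in part, to be read against the 36.7% of all tested genes called in either direction. Most of these lists had few tested members. T and NK cell markers gave 1 higher and 2 lower of 15 tested (20 listed). Cd4, which some macrophages also express, was 87.7, 31.3 and 22.9 in Intestine and 8.05, 12.7 and 3.81 in Spleen (2.28 ± 0.62, adjusted p = 0.015, and 0.053 without Intestine replicate 1 or 0.0504 without Spleen replicate 3), and the granzyme Gzma was 0.0532, 0.0415 and 0.422 in Intestine and 6.45, 6.07 and 6.20 in Spleen (-2.64 ± 0.60). Gzma met the minimum value through Spleen alone and had to differ. Of 13 tested dendritic cell genes (15 listed) 3 were higher and 3 lower, and 2 of the 13 were tested through Intestine alone. Ccr7, the receptor that guides migration to lymph nodes, was 0.585, 5.52 and 0.0384 in Intestine and 21.1, 21.2 and 23.7 in Spleen (-3.38 ± 0.79). Eosinophil genes gave 3 lower of 6 tested (12 listed), among them the eotaxin receptor Ccr3 at 4.95, 0.622 and 2.50 in Intestine and 27.7, 11.3 and 24.7 in Spleen (-2.69 ± 0.72), which missed the threshold without Spleen replicate 1 or 3 (adjusted p = 0.076 and 0.058). Mast cell and basophil genes gave 1 higher and 1 lower of 4 tested (14 listed). The lower, Hdc (-2.82), which forms histamine, is also on the neutrophil list. Platelet genes gave 3 higher and 1 lower of 7 tested (12 listed). Pf4 was 47.3, 12.2 and 31.6 in Intestine and 1.43, 1.27 and 0.236 in Spleen (3.86 ± 0.72). Erythroid genes gave 2 higher of 4 tested (12 listed), and 1 of the 4 was tested through Intestine alone. Hbb-bs, a beta globin that shares reads with its copies, was 1869, 73 and 70.02 in Intestine and 68.8, 14.7 and 8.66 in Spleen (3.29 ± 1.15, adjusted p = 0.046), and Intestine replicate 1 held most of it. It missed the threshold without that library, at a difference of 1.72, and without Spleen replicate 2 or 3 (adjusted p = 0.11, 0.13 and 0.16). Myeloid progenitor markers were higher in 5 of 9 tested genes (14 listed), led by Sox4 (3.86), Cd34 (2.63) and Meis1 (3.89). Cd34 is a marker of vessels and fibroblasts as well, and 10 of the 14 listed genes stand on another list.

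Among the 15 genes with the largest losses outside those lists, several were near the floor in all Intestine libraries. Slfn4, a Schlafen gene induced by interferon in myeloid cells, was 1.03, 3.38 and 8.66 in Intestine and 524, 805 and 84.8 in Spleen (-6.23 ± 0.80, adjusted p = 2.3e-04). Its relative Slfn1, which can share reads with it, was 8.56, 31.8 and 41.2 in Intestine and 739, 1103 and 689 in Spleen (-5.13 ± 0.48). Spleen replicate 3 was the lowest Spleen library for both. Kif23, a kinesin of cell division, was 0.2998, 0.0415 and 0.311 in Intestine and 98.3, 109.97 and 57.9 in Spleen (-6.16 ± 0.58). Blood libraries held 47.96 to 96.6 scaled counts of Kif23 and 1051 to 1663 of Slfn1. Cdh23, a cadherin known from the hair cells of the ear, was at the floor in all 3 Intestine libraries and 30.9, 35.5 and 66.9 in Spleen, at least 167-fold lower in Intestine. The tyrosine phosphatase Ptpre was 0.0695, 0.0415 and 0.0384 in Intestine and 37.3, 21.4 and 133 in Spleen (-5.53 ± 0.77). Mpzl3 (-5.35), Rufy4 (-5.32), Prr5l (-5.26), Map3k15 (-5.23), the pantetheinase relative Vnn3 (-5.17), the TNF receptor family member Relt (-5.07), Vsig10l (-5.05) and Sirpb1a (-5.03) were also in the group, as was Padi4. Prr5l, an mTOR complex 2 partner, was 2.95, 3.78 and 9.33 in Intestine and 234, 219.7 and 212 in Spleen. To be named here a gene had to have every Intestine library below every Spleen library, so that separation is not a result. Kif23, Cdh23 and Ptpre were under 1 in every Intestine library, met the minimum value through Spleen alone and had to differ. The same may hold for genes given by their difference alone.

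Of 17 heat shock and chaperone genes, all tested and 2 of them through Intestine alone, 11 were higher in Intestine against 19.1% of all tested genes. The other 6 did not pass, 2 of them with a negative difference, and the median of all 17 was 1.24. These genes encode chaperones that refold proteins and many of them are switched on by heat shock factor 1 through heat shock elements, inverted repeats of the bases GAA. With all 18 libraries in the fit, 5 of them were called higher. The promoters of 3 members are shown because each gene was higher and carries the element. All are from RefSeq on GRCm38.p6, 140 bases upstream of the start, at chr17:34972157-34972296 (minus strand), chr5:135887779-135887918 (plus strand) and chr1:55088008-55088147 (plus strand). Capitals mark the element, searched as GAANNTTC or TTCNNGAA, and in Hspe1 they mark 3 overlapping matches.
Hspa1a: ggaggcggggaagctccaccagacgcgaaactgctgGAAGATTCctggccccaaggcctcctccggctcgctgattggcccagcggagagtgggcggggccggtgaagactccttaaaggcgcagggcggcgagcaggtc
Hspb1: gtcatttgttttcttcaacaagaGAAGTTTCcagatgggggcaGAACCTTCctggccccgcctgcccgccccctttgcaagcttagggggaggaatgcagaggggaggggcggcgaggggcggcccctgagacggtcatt
Hspe1: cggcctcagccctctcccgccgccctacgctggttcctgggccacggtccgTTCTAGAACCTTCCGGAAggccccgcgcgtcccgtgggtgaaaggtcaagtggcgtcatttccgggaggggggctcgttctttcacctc
Each form equals its own reverse complement, so 1 search covers both strands. The element was present within 250 bases upstream in 8 of the 14 members with a RefSeq promoter and in 12.8% of 32851 promoters. The 8 are not separate stretches. The windows of Hspd1 and Hspe1 overlap and hold the same 3 matches, and the near copies Hspa1a and Hspa1b are both counted. A match describes the letters of these windows and says nothing of binding.

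Hspa1a, the inducible Hsp70, was 90.2, 176 and 206 in Intestine and 3.57, 0.781 and 0.356 in Spleen, a difference of 6.07 ± 0.58 (adjusted p = 3.7e-05). Its copy Hspa1b was 108, 159.6 and 118 in Intestine and 4.46, 3.76 and 14.04 in Spleen (4.13 ± 0.48). The 2 upstream windows are identical at 247 of 250 bases, the transcripts are near copies, and reads shared between them make each value uncertain alone. Bag3, a cochaperone of Hsp70, was 37.8, 45.4 and 27.8 in Intestine and 0.193, 0.0364 and 0.0473 in Spleen (5.10 ± 0.63). The constitutive chaperone Hsp90ab1 was 1074, 1313 and 1473 in Intestine and 413, 346 and 483 in Spleen, a smaller difference of 1.63 ± 0.22. Hspb1 and Hspe1 were chosen after their values were seen. Hspb1, a small chaperone also found in smooth muscle, was 20.9, 16.1 and 9.68 in Intestine and at the floor in all 3 Spleen libraries, at least 64-fold higher in Intestine, and Hspe1, the mitochondrial chaperonin partner, was 138, 124 and 123 in Intestine and 45.7, 25.4 and 58.5 in Spleen (1.62 ± 0.33). For these 6 genes every Intestine library was above every Spleen library. Bag3 and Hspb1 met the minimum value through Intestine alone and had to differ, so their separation is not a result. Dnajb1, an inducible member also chosen after its values were seen, was 16.1, 26.2 and 58 in Intestine and 35.5, 34.2 and 37.02 in Spleen (adjusted p = 0.67).

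**Figure D5:**
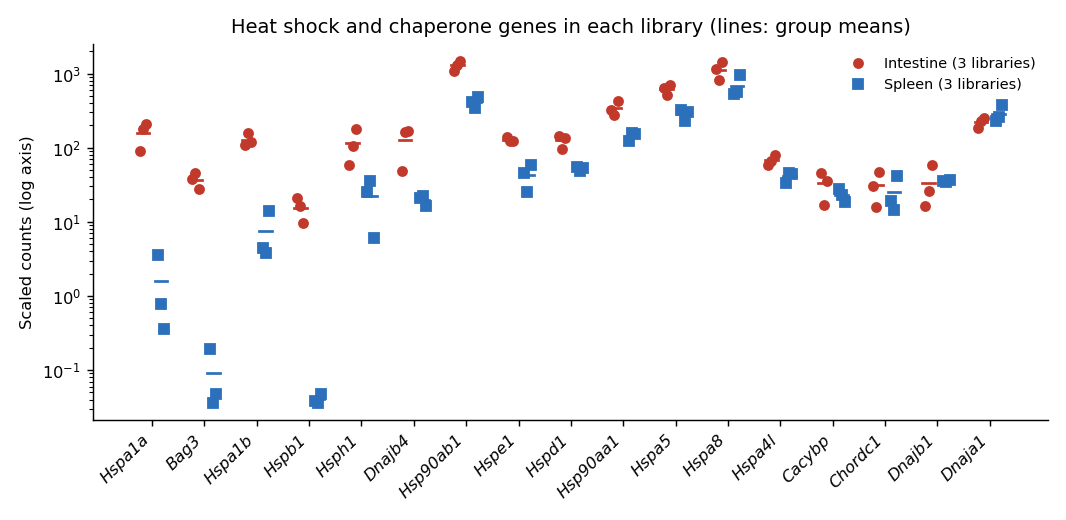
Scaled counts (vertical log axis) of the 17 heat shock and chaperone genes in the 3 Intestine (red circles) and 3 Spleen (blue squares) libraries, with a line at each group mean. Genes are ordered by their log2 difference, from Hspa1a down, with Hspa1a at 90.2 to 206 scaled counts in Intestine and 0.356 to 3.57 in Spleen.

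Mitochondrially encoded transcripts, which code for subunits of the respiratory chain, were higher in 10 of 13 tested genes, and 3 did not pass, with a median of 3.82. mt-Nd4, a subunit of complex I, was 24707, 7888 and 8989.7 in Intestine and 630.1, 557 and 761 in Spleen (4.22 ± 0.40), and mt-Cytb of complex III was 34456, 11373 and 10034 in Intestine and 785, 591 and 1035 in Spleen (4.33 ± 0.44). Intestine replicate 1 was the highest by far, and the other Intestine libraries still exceeded every Spleen library. Of the nuclear subunits of the same complexes 10 of 57 were higher, a share near the 19.1% of all tested genes, and 47 did not pass, with a median of 0.38. Uqcrb of complex III was 90.6, 81.3 and 94.2 in Intestine and 18.4, 18.8 and 20.3 in Spleen (2.15 ± 0.29), and Atp5a1 of the ATP synthase was 571, 518 and 499 in Intestine and 190.3, 205 and 270.4 in Spleen (1.26 ± 0.22).

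Genes of the ribosome, the proteasome and the cell cycle passed in few cases, against 36.7% of all tested genes in either direction and 19.1% higher. Among cytosolic ribosomal proteins 10 of 76 tested genes were higher and 2 lower, a median of 0.27. Proteasome subunits gave 8 higher of 34, with 26 not passing, led by Psmd1 at 110.3, 220.01 and 157 in Intestine and 45.8, 37.8 and 32.5 in Spleen (2.0 ± 0.31). Of 32 tested cell cycle genes (35 listed) 0 passed by limma after adjustment, 4 had an unadjusted p under 0.05, and limma with voom weights called 1. Mki67, a marker of cycling cells, was 72.7, 50.2 and 75.7 in Intestine and 153, 157 and 75.9 in Spleen (adjusted p = 0.06, and 0.012 at a difference of -1.24 without Spleen replicate 3).

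Of 27 tested genes of glycolysis and hypoxia (28 listed) 6 were lower and 4 higher, a share called near the 36.7% of all tested genes. The 3 lower genes with the smallest adjusted p are given as values. Hk3, the hexokinase of myeloid cells, was 12.2, 9.005 and 5.72 in Intestine and 146, 205 and 155 in Spleen (-4.13 ± 0.36), the glucose transporter Slc2a3 was 149.7, 46.4 and 84.4 in Intestine and 777, 991 and 911 in Spleen (-3.39 ± 0.36) and Pfkfb4, which controls the rate of glycolysis, was 19.9, 11 and 23.5 in Intestine and 139.6, 184 and 143 in Spleen (-3.08 ± 0.34). All 3 separated the groups.

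Factors of vessel growth and repair were higher in 11 of 24 tested genes (28 listed), 4 of them tested through Intestine alone, and lower in 4. Thbs1 (thrombospondin 1) was 379.5, 529.7 and 439 in Intestine and 33.8, 16.3 and 24.3 in Spleen (4.17 ± 0.30), and the semaphorin receptor Nrp1 was 195, 301 and 249 in Intestine and 5.26, 1.18 and 0.804 in Spleen (6.40 ± 0.51), both higher in every Intestine library. Vegfa, the central vessel growth factor, was 52.6, 53.02 and 72.2 in Intestine and 62.1, 63.9 and 49.2 in Spleen, and the groups overlapped (adjusted p = 0.97). Stromal and endothelial cells express many of these genes too. Of 9 tested factors proposed to help B cells (10 listed) 1 was higher, the stromal chemokine Cxcl12 at 188, 307 and 401 in Intestine and 0.193, 0.109 and 0.142 in Spleen (7.96 ± 0.47), and 8 did not pass. Cxcl12 met the minimum value through Intestine alone and had to differ. Tnfsf13b (BAFF) was 11.2, 28.4 and 59.5 in Intestine and 15.2, 8.04 and 23.8 in Spleen (adjusted p = 0.33).

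Of 17 tested clock genes (19 listed) 6 were higher and 1 lower, a share called near the 36.7% of all tested genes, and 2 were tested through Intestine alone. Rora, a nuclear receptor of the clock, was 129, 122 and 182 in Intestine and 5.95, 4.57 and 0.901 in Spleen (5.09 ± 0.53), Clock was 73.1, 75.98 and 96.9 in Intestine and 24.3, 19.2 and 28.99 in Spleen (1.73 ± 0.31) and Per2, a repressor, was 7.82, 10.4 and 3.19 in Intestine and 52.98, 87 and 46.5 in Spleen in the other direction (-3.02 ± 0.51). The labels give no time of day for the sorts. The stefin A protease inhibitors were lower in 2 of 5 tested genes (9 listed), with Stfa2l1 at 2.29, 0.373 and 0.422 in Intestine and 33.2, 53.2 and 112 in Spleen (-5.0 ± 0.68). Among 4 tested sex-linked genes, Eif2s3y of the Y chromosome was 26.97, 26.8 and 25.6 in Intestine and 148, 169.7 and 56.99 in Spleen (-2.05 ± 0.41), Kdm5d was 64.2, 38.4 and 26.7 in Intestine and 71.9, 64.7 and 90.4 in Spleen (adjusted p = 0.082, and 0.018 without Intestine replicate 1), and all 6 libraries held Y-linked transcripts.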

How the data were processed

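The comparison used 6 of the 18 libraries, 3 labelled Intestine and 3 labelled Spleen. The labels' protocols describe amplification of sorted-cell RNA with the Ovation Single Cell kit and 61-nt reads from single ends (Genome Analyzer IIx). The submitters' processing notes name CASAVA, RSEM 1.3.1, limma and the build mm10, with no order and no annotation. The authors deposited 1 table of a signal per gene and library. It is named as TPM, but the values hold no gene length. Each fits (estimated count + 0.5) / (effective library + 1) times 1e6, as read from the values. Between 50.7% and 60.7% of the recovered counts above the floor were whole to within 0.01 in these libraries, so they were not taken as whole reads and the limma test planned for TPM was kept.

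GENCODE vM21 named 31820 of the 32328 identifiers, and 508 have no name. Genes at 1 or more in 3 or more of the 6 libraries were fitted on log2(value + 1) with limma 3.58.1 under R 4.3.3, using a moderated test, a trended prior and 4 residual degrees of freedom. Adjustment was by Benjamini-Hochberg over the 13631 genes, with a threshold of 0.05, and every adjusted p printed for a gene comes from such a limma fit. The pseudocount understates changes of low genes. Where a group had no reads, a bound on the fold took 3 counts in each library as its floor, an allowance for counting error alone. Copies, and genes overlapping on opposite strands, may share reads, since strand use is not given in the sources used here.

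The comparison and the 43 gene lists were chosen with earlier results of these data known, so lists are given as counts and medians without a test. Genes were named by rule as the 15 highest and 15 lowest differences among called protein-coding genes with groups that do not overlap and a higher group mean of 20 or more. Predicted genes, markers of other cells and mitochondrially encoded genes were left out of that ranking. The rule adds up to 4 members per list by adjusted p, up to 3 per list of other cells by level, and a fixed set. A few genes that it names are not reported here. The fit was tested on data simulated from these libraries, with 50 genes changed at each fold among 13574 tested. The simulation used a single negative binomial dispersion, a measure of spread, of 0.0901. In that setting the fit recovered 16% of genes changed 2-fold and 100% of those changed 4-fold, 8-fold or 16-fold. It called 4 of 13374 unchanged genes. These shares do not hold for genes of wider spread. In the real libraries, log2 differences of 3.49 ± 1.45 (Ighv3-2) and 3.31 ± 1.69 (Igkv9-124) were not called. Alternatives covered pseudocounts, filters, scalings, variance models, weights, other sets of libraries, a replicate block and leaving out each library.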

Additional observations from a re-analysis of the deposited data

How the results depend on the processing

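The 4999 called genes ranged from 3639 to 5000 when 1 library was left out. With all 18 libraries in the fit, which adds the spread of the other tissues, 2891 genes were called, 1685 higher and 1206 lower, and 5 heat shock genes were higher. The counts of called genes in either direction, and of the called members of the neutrophil, stromal, endothelial, plasma cell, macrophage, B-cell, goblet cell and heat shock lists, stayed within 1.5 times of their values under the other 20 of 21 alternatives. Of 153 called genes checked, 128 passed in every alternative where they were tested and 0 changed sign. Quantile normalisation moved the median of all genes by -0.24. Labels give both tissues replicate numbers 1 to 3. With the replicate block 4861 genes were called (2527 higher, 2334 lower). Same-numbered libraries did not deviate together (r = -0.00, 0.02 and -0.02, against -0.02 to 0.02 for other pairs), and replicates 1 and 3 correlated best with another number. With 3 libraries per tissue these correlations cannot show whether equal numbers share a mouse or a day.

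Values that changed sign had not passed or were list medians, and the causes were not tested. The azurophil median became 0.324 with a minimum of 5 and 0.0893 with a weight per library, and the MHC class II median 0.768 with a minimum of 5. The B-cell helper median became 0.429 with no pseudocount, that of the cell cycle -0.37 under quantile normalisation and that of eosinophils 0.515 without a filter. Under quantile normalisation Lyz2 became 0.192, Cybb 0.401 and Dnaja1 0.0765. Cybb also became 0.000177 with a pseudocount of 5, 0.096 when rescaled without mitochondrial genes and Gm10800, and 0.101 with a weight per library, where Dnajb1 became 0.237. Vegfa became -0.0500 under upper quartile scaling. Leaving out 1 library gave medians of -0.162 to 0.198 (azurophil), -0.486 to 0.498 (MHC class II) and -0.439 to 0.549 (B-cell helper). It gave -1.53 to 0.147 for Ngp, -0.449 to 0.158 for Lyz2, -0.338 to 0.325 for Cybb, -0.762 to 0.132 for Dnajb1, -0.132 to 0.0915 for Vegfa and -0.0479 to 0.724 for Chordc1.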
